A study of Homo sapiens with 6 samples.

Results

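Kinesins are the family of microtubule motors encoded by genes whose symbols begin with KIF or KIFC. The members described here are the protein-coding genes whose GENCODE 29 symbol is KIF or KIFC followed by a number, without the binding proteins KIF1BP and KIFAP3. This rule found 42 genes among the 58735 of the deposited table and used no measured value. By their known roles 14 of them were grouped as mitotic kinesins, 15 as transport kinesins and 13 as ciliary and atypical kinesins. This grouping was made with earlier results of these data known.

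The levels were measured by mRNA sequencing of C4-2B MDVR, a line derived from the human prostate cancer line C4-2B and resistant to the antiandrogen enzalutamide. Cells were exposed for 2 days, and each of the 6 conditions is 1 library. Enzalutamide was given with PTUPB at 10 uM, with PTUPB at 20 uM, or alone at 20 uM. PTUPB, which inhibits both cyclooxygenase-2 and soluble epoxide hydrolase, was given by itself at 10 or 20 uM, and the control received the solvent DMSO. The enzalutamide dose of the combinations is not in the labels, and the dose of the single-agent library was assumed for them. With 1 library in each condition no value has a replicate error, and all cells come from a single resistant line.

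Kinesins hydrolyse ATP in a conserved motor domain to walk along microtubules or to take their ends apart. Mitotic kinesins build the spindle, move chromosomes and carry out cytokinesis, and their mRNAs are made mainly late in the cell cycle, so in a growing cancer line they follow the share of dividing cells. Transport kinesins carry vesicles, organelles and mRNAs in cells at any stage, often through light chains or adaptors, and several are best known from axons. Ciliary and atypical kinesins serve cilia, limit microtubule growth or lack well studied cargo.

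Libraries held between 20156523 and 29450436 fragments, and the lowest depths were those of the 2 libraries with 20 uM PTUPB. All 10 luminal prostate markers had a mean above 1 FPKM, where FPKM is the number of fragments scaled by exon length and a factor for each library. That factor was not the total of fragments, since rescaling by total fragments shifted the median of all genes by -0.11 for enzalutamide. The summed luminal level was 251 and 266 FPKM in the libraries with 20 uM PTUPB, against 911 to 1124 FPKM in the other 4. Markers of other cell types were low in every library, at a summed 0.00508 to 0.674 FPKM for basal epithelium, 0.0379 to 0.322 FPKM for blood and 0.0734 to 0.496 FPKM for endothelium. Stroma markers summed to 2.48 to 7.05 FPKM, and the sum was highest in the libraries with 20 uM PTUPB. Most of it was COL1A1, at 6.47 and 4.60 FPKM in those libraries, with and without enzalutamide, against 2.28 to 3.67 FPKM in the other 4. ACTA2 was also highest there, whereas COL1A2, COL3A1 and DCN were highest in control and LUM in the combination at 10 uM PTUPB. The part of depth, luminal level and stroma level in the results on kinesins was not tested.

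Promoter sequences are shown because the mitotic kinesins moved together, as described further on. RefSeq (GRCh38.p14) gave a promoter for 34 of the 42 kinesins, matched by symbol, as windows of 300 bases from 250 before the transcription start to 50 after it. Each printed stretch runs 5′ to 3′ on the strand of the gene, with 100 bases before the start and 10 from the start on. Capitals mark 2 motifs. The CCAAT box (CCAAT, or ATTGG when it lies on the other strand) is bound by the factor NF-Y. The cell cycle genes homology region, or CHR (TTTGAA, or TTCAAA on the other strand, and TTCGAA, which reads the same on both), is bound by the DREAM and MuvB complexes.

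The stretches of KIF4A (chrX:70290004-70290113, plus strand), KIF11 (chr10:92593030-92593139, plus strand), KIF14 (chr1:200620742-200620851, minus strand), KIF22 (chr16:29790651-29790760, plus strand) and KIFC1 (chr6:33391723-33391832, plus strand) show mitotic kinesins that hold both motifs.
KIF4A: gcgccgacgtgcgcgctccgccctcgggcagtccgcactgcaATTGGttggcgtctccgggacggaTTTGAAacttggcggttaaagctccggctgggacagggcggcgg
KIF11: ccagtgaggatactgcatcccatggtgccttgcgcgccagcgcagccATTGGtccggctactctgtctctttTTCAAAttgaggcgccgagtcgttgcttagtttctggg
KIF14: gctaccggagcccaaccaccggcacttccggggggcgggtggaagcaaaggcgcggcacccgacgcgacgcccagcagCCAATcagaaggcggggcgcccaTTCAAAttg
KIF22: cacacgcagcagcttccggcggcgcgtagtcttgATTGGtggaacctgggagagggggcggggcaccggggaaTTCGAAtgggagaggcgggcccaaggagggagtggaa
KIFC1: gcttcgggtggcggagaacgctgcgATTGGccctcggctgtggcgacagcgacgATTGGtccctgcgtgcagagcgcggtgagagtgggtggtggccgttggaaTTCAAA

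The stretches of KIF20A (chr5:138179012-138179121, plus strand), a mitotic kinesin without the CHR letters, of KIF24 (chr9:34329259-34329368, minus strand), the ciliary kinesin that has them, and of KIF5B (chr10:32056416-32056525, minus strand) and KIF21A (chr12:39443111-39443220, minus strand), which transport cargo or limit microtubule growth, are shown for contrast.
KIF20A: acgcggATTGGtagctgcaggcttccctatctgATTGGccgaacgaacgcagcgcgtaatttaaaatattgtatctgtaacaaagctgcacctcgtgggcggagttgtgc
KIF24: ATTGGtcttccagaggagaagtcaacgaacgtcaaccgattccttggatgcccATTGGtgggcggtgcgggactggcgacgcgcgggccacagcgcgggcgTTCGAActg
KIF5B: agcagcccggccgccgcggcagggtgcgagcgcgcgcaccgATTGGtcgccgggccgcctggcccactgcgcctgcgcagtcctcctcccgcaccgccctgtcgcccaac
KIF21A: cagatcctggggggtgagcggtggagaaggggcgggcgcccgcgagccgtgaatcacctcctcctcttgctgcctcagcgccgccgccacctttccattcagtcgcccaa

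The CHR letters occurred on either strand in the window of 11 of the 14 mitotic kinesins (78.6%), against 1 of 11 transport kinesins (9.09%), 1 of 9 ciliary and atypical kinesins (11.1%) and 19.5% of all 27305 genes with a promoter. CCAAT occurred in 11 of 14 mitotic kinesins, in 4 of 11 transport kinesins, in 3 of 9 ciliary and atypical kinesins and in 39.7% of all genes. Both motifs stood in the windows of 10 of 14 mitotic kinesins, against 7.85% of all genes. A gene with more than 1 window was counted when any of them held the letters. The transport kinesin with both was KIF5B, whose CHR letters lie 140 bases before the start, outside the stretch printed above. In KIF2B, KIF2C and KIF20A the CHR letters were not found, and KIF2B, KIF2C and KIF15 lacked CCAAT. The E2F letters were TTGGCGC and TTCGCGC on both strands and can share bases with ATTGG. They were found in 3 of 14 mitotic kinesins, against 6.10% of all genes. Among the 8858 genes that were tested and had a promoter, the shares were 14.4% for CHR, 43.6% for CCAAT, 6.12% for both and 10.8% for E2F. These matches describe letters in a window and are not measured binding. Only the spellings given were searched, so a window without the CHR letters may hold another form of the element.

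Across the family 31 genes reached a mean of 1 FPKM over the 6 libraries and entered the tests. These were 12 mitotic, 13 transport and 6 ciliary or atypical kinesins. KIF5B, the ubiquitous heavy chain of conventional kinesin, had the highest mean at 97.0 FPKM, followed by KIF1C at 35.6 and KIF3B at 30.5 FPKM. The highest mean of a mitotic kinesin was 14.9 FPKM, for KIF22.

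**Figure D1:**
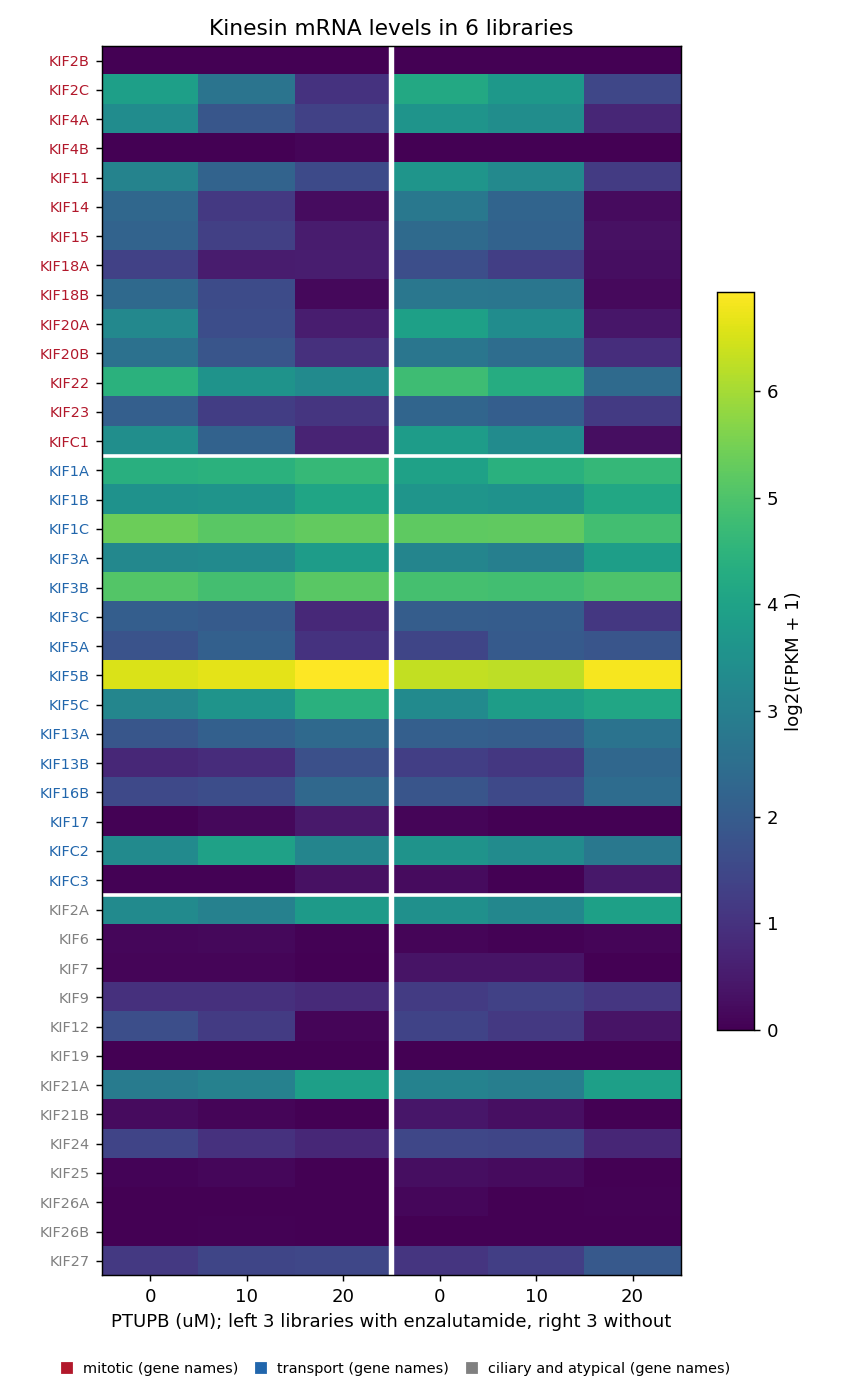
Level of each of the 42 kinesins as log2(FPKM + 1), coloured from 0 (dark) upwards, with genes in rows by class and the 6 libraries in columns by PTUPB dose in uM, with enzalutamide on the left and without it on the right. Most mitotic kinesins are dark at 20 uM PTUPB with and without enzalutamide, while KIF5B stays the brightest row in all 6 libraries.

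The mitotic class made up the smallest share of kinesin mRNA at 20 uM PTUPB. With enzalutamide, mitotic kinesins made up 26.4%, 12.4% and 5.34% of the summed FPKM of the 42 genes at 0, 10 and 20 uM PTUPB. Without enzalutamide the shares were 34.2%, 27.7% and 3.66% at the same doses. The summed level of all 42 genes lay between 299.6 and 353 FPKM in all 6 libraries. KIF5B by itself supplied 36.2% and 36.7% of that sum in the libraries with 20 uM PTUPB, with and without enzalutamide, against 22.0% in control. Since the share is of the family total, a lower mitotic sum raises the share of the other genes.

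Of the 31 kinesins tested, 19 were called for 20 uM PTUPB over 0 uM, beside 34.2% of all genes. Of the 12 mitotic kinesins tested, 11 fell with 20 uM PTUPB and 0 rose. The test was limma on log2(FPKM + 1), with PTUPB as 3 levels plus enzalutamide and with Benjamini-Hochberg adjustment over all 12960 genes. In the same fit 18.2% of all genes fell and 15.9% rose. The median fitted effect of the 12 was -2.15 on the log2 scale, from -3.16 to -1.06, against 0.00 over all genes. Both libraries with 20 uM PTUPB lay below the other 4 for 11 of the 12, an arrangement that 29.5% of all genes showed. In RNA from whole cultures, fewer dividing cells and less of these mRNAs in each cell cannot be told apart. The p-values set each effect against the departure of the 6 libraries from additive effects, and not against the spread between replicates.

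KIFC1, the minus-end-directed motor that focuses spindle poles and clusters centrosomes, had the largest fitted effect on the log2(FPKM + 1) scale. With enzalutamide it measured 9.69, 3.56 and 0.603 FPKM at 0, 10 and 20 uM PTUPB, and without enzalutamide 13.2, 9.24 and 0.190 FPKM. Its level at 20 uM PTUPB was 16.1-fold lower than at 0 uM with enzalutamide and 69.7-fold lower without it, and both values at 20 uM lie below the other 4. The lowest of them rests on 15 fragments, for which the exact 95% Poisson interval, covering counting error only, is 0.106 to 0.313 FPKM. The fitted effect was -3.16 ± 0.37 on the log2 scale (SE, limma adjusted p = 0.0049). Adding 1 to FPKM shrinks changes at low levels, so the order of genes by fitted effect can differ from their order by fold.

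KIF20A, which brings the chromosomal passenger complex to the central spindle, followed by fitted effect. It measured 8.49, 2.09 and 0.482 FPKM at 0, 10 and 20 uM PTUPB with enzalutamide, and 14.4, 9.34 and 0.332 FPKM without. The order of the doses was the same in both series, and the fitted effect of 20 uM was -3.11 ± 0.43 (SE, limma adjusted p = 0.0067). Its promoter stretch above holds CCAAT and not the CHR letters.

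KIF2C, a microtubule depolymerase of centromeres and spindle poles, measured 14.2, 5.38 and 1.02 FPKM at 0, 10 and 20 uM PTUPB with enzalutamide and 17.1, 12.1 and 1.76 FPKM without. Both series ran downwards with dose. The effect was -2.81 ± 0.23 (SE, limma adjusted p = 0.0029), with the smallest standard error of the 12, and the promoter window of this gene also lacks the CHR letters.

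KIF4A, a chromokinesin that limits microtubule growth on chromosomes and at the midzone, measured 9.36, 2.60 and 1.54 FPKM with enzalutamide and 11.0, 9.59 and 0.691 FPKM without, at 0, 10 and 20 uM PTUPB. Its effect was -2.43 ± 0.48 (SE, limma adjusted p = 0.016), with the largest standard error of the 12. With enzalutamide most of the difference lies between 0 and 10 uM, and without it between 10 and 20 uM.

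KIF18B, a motor of microtubule plus ends that limits astral microtubules, measured 4.22, 2.02 and 0.105 FPKM with enzalutamide and 5.67, 5.57 and 0.127 FPKM without. From 0 to 20 uM it fell 40.1-fold with enzalutamide and 44.5-fold without, against 16.1-fold and 69.7-fold for KIFC1. Without enzalutamide the KIF18B values at 0 and 10 uM are nearly equal. The lowest value rests on 9 fragments (exact 95% Poisson interval 0.0482 to 0.200 FPKM), and the effect of 20 uM was -2.40 ± 0.31 (SE, limma adjusted p = 0.0057).

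KIF14, which works with citron kinase at the midbody in cytokinesis, measured 3.98, 1.24 and 0.180 FPKM with enzalutamide and 5.83, 3.70 and 0.157 FPKM without, at 0, 10 and 20 uM PTUPB. The 2 libraries at 20 uM are close to each other and far below the rest, and the effect was -2.32 ± 0.31 (SE, limma adjusted p = 0.0062).

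KIF11, the motor that slides spindle microtubules apart and the target of several antimitotic drugs, measured 7.65, 3.64 and 1.96 FPKM with enzalutamide and 11.2, 8.65 and 1.32 FPKM without. KIF15, which can take over part of that work, measured 3.64, 1.48 and 0.443 FPKM with enzalutamide and 4.22, 3.51 and 0.232 FPKM without. On the log2(FPKM + 1) scale the fitted effects were similar, at -1.97 ± 0.34 for KIF11 (SE, limma adjusted p = 0.011) and -1.88 ± 0.31 for KIF15 (SE, limma adjusted p = 0.010). In FPKM the fall from 0 to 20 uM was larger for KIF15. It was 8.20-fold with enzalutamide and 18.2-fold without, against 3.90-fold and 8.48-fold for KIF11. For both, all values at 20 uM lie below those of the other 4 libraries.

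The other 4 tested mitotic kinesins had effects between -1.73 and -1.06. KIF20B, a motor of late cytokinesis, fell by 1.73 (limma adjusted p = 0.0066). KIF22, a chromokinesin that pushes chromosome arms towards the metaphase plate, also had a fitted effect of -1.73 (limma adjusted p = 0.024). In FPKM from 0 to 20 uM, KIF20B fell more than KIF22 in both series, by 5.35-fold against 2.26-fold with enzalutamide. KIF22 kept the highest levels of the class at 20 uM, at 9.01 FPKM with enzalutamide and 4.32 FPKM without. KIF23, the motor subunit of centralspindlin, fell by 1.06 (limma adjusted p = 0.028). KIF18A, which dampens chromosome movements at the metaphase plate, did not pass the test at -1.09 ± 0.35 (SE, limma adjusted p = 0.058). Its levels at 10 and 20 uM PTUPB with enzalutamide were 0.454 and 0.479 FPKM, so that it is the exception among the 12 in which the 20 uM libraries are not both the lowest. Exons of other genes overlap 13.0% of the exon length of KIF22 and 12.7% of that of KIFC1, and the sources used here do not say whether reads were assigned by strand.

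**Figure D2:**
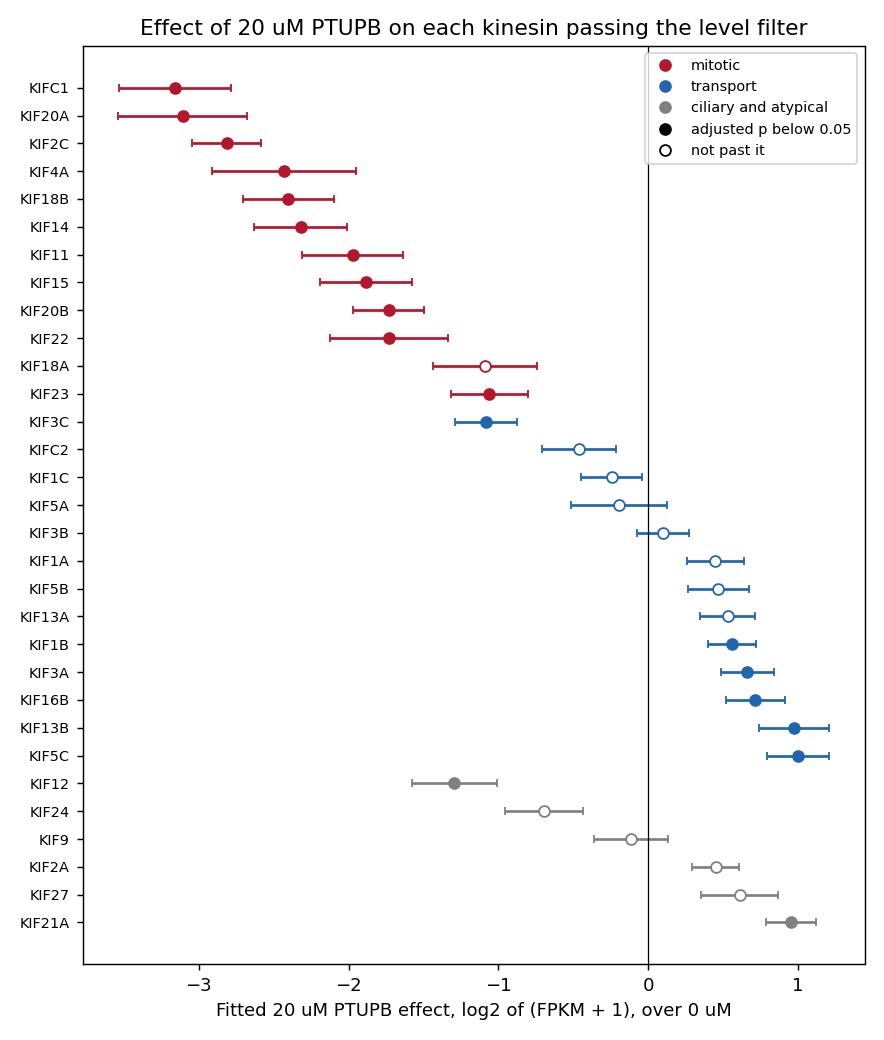
Fitted effect of 20 uM PTUPB over 0 uM on log2(FPKM + 1) for the 31 kinesins tested, by class, with bars of 1 standard error and filled points where the limma adjusted p is below 0.05. All 12 mitotic kinesins lie below 0 and 11 of them are filled, whereas 9 of the 13 transport kinesins lie above 0.

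The 11 falls among mitotic kinesins became 4 when the control library was left out and 1 when the library with enzalutamide alone was left out, in fits with 1 residual degree of freedom in which the calls over all genes went to 982 and 324. With no filter on low levels 2 mitotic falls were called. With libraries rescaled by total fragments all 12 fell.

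Transport kinesins had smaller effects, 9 of 13 of them above 0. Of 13 tested, 5 rose with 20 uM PTUPB, 1 fell and 7 did not pass, beside 15.9% of all genes rising and 18.2% falling. Their median effect was 0.47 on the log2 scale, against 0.00 over all genes. Both libraries with 20 uM PTUPB lay above the other 4 for 8 of the 13, beside 30.3% of all genes.

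The largest fitted rise on the log2(FPKM + 1) scale was that of KIF5C, a conventional kinesin heavy chain best known from neurons. It measured 8.04, 11.1 and 20.2 FPKM at 0, 10 and 20 uM PTUPB with enzalutamide and 9.00, 13.6 and 16.1 FPKM without. Its level climbed at each dose in both series, and the effect of 20 uM was 1.00 ± 0.21 (SE, limma adjusted p = 0.018). Its close relative KIF5B measured 93.1, 100.3 and 121.5 FPKM with enzalutamide and 77.6, 74.8 and 114.6 FPKM without. For KIF5B the 20 uM libraries were also the highest, but the effect of 0.47 ± 0.20 did not pass the test (SE, limma adjusted p = 0.13). KIF5A, the third heavy chain and largely neuronal, had no steady order, with 1.02 to 3.34 FPKM and an effect of -0.19.

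KIF13B, which carries phosphoinositide-binding cargo to the cell membrane, measured 0.723, 0.848 and 2.23 FPKM at 0, 10 and 20 uM PTUPB with enzalutamide and 1.42, 1.19 and 3.99 FPKM without. It rose by 0.97 ± 0.23 (SE, limma adjusted p = 0.027), and within each series the 0 and 10 uM values were close. In FPKM its rise from 0 to 20 uM was 3.09-fold with enzalutamide and 2.80-fold without, against 2.51-fold and 1.79-fold for KIF5C. KIF16B, an early endosome motor, had 1.90, 2.12 and 4.05 FPKM with enzalutamide and 2.56, 1.90 and 4.51 FPKM without. Both 20 uM values lie above the other 4, and it rose by 0.72 ± 0.20 (SE, limma adjusted p = 0.039).

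KIF3A, KIF3B and KIF3C are motor subunits of kinesin-2, which serves cilia and vesicle transport. KIF3A rose by 0.66 ± 0.18 (SE, limma adjusted p = 0.037), with 13.2 and 13.9 FPKM in the libraries with 20 uM PTUPB against at most 8.98 FPKM in the other 4. KIF3C was the transport kinesin that fell. It measured 3.20, 3.01 and 0.749 FPKM at 0, 10 and 20 uM PTUPB with enzalutamide and 3.09, 3.05 and 1.19 FPKM without. The values at 0 and 10 uM are alike, and the effect of 20 uM was -1.08 ± 0.21 (SE, limma adjusted p = 0.015). KIF3B, the usual partner of KIF3A, measured 33.0, 28.2 and 34.8 FPKM with enzalutamide and 28.4, 27.6 and 31.0 FPKM without. It showed no order with dose, at 0.10 ± 0.18 (SE, limma adjusted p = 0.69).

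KIF1B, a motor of mitochondria and synaptic vesicle precursors, rose by 0.56 ± 0.16 (SE, limma adjusted p = 0.046), with 16.0 and 17.0 FPKM in the libraries with 20 uM PTUPB against 10.5 to 11.2 FPKM in the others. KIF1C, which moves vesicles between Golgi and endoplasmic reticulum, measured 40.5, 35.0 and 37.3 FPKM with enzalutamide and 36.2, 37.0 and 27.8 FPKM without. Its effect was -0.24 ± 0.20 (SE, limma adjusted p = 0.38), and the groups overlapped. KIFC2, a minus-end-directed motor studied mainly in neurons, measured 8.90, 14.6 and 7.93 FPKM with enzalutamide and 10.8, 9.11 and 5.92 FPKM without. It did not pass the test either, at -0.46 ± 0.25 (SE, limma adjusted p = 0.20), and 17.8% of its exon length overlaps FOXH1. KIF1A and KIF13A had effects of 0.45 and 0.53 with limma adjusted p of 0.12 and 0.072.

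The 5 rises among transport kinesins became 2 after rescaling to TPM (transcript counts scaled to a common total), 2 after rescaling by total fragments, 2 with the level filter at a mean of 0.3 FPKM, and between 0 and 3 with any 1 library left out.

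Of the 6 ciliary and atypical kinesins tested, 1 rose, 1 fell and 4 did not pass, with a median effect of 0.17. These counts are near the shares of all genes, 15.9% rising and 18.2% falling. KIF21A, which pauses microtubule growth at the cell cortex, rose. It measured 6.35, 7.22 and 14.2 FPKM at 0, 10 and 20 uM PTUPB with enzalutamide and 7.38, 6.77 and 14.2 FPKM without. The 2 series ended at the same level, and the effect was 0.95 ± 0.17 (SE, limma adjusted p = 0.012). KIF12, a kinesin of liver and kidney epithelia, fell. It measured 2.19, 1.31 and 0.0718 FPKM with enzalutamide and 1.61, 1.21 and 0.293 FPKM without, with 4 fragments behind the lowest value, and the effect was -1.29 ± 0.28 (SE, limma adjusted p = 0.021). KIF24, which acts at centrioles to restrain cilia, measured 1.68, 0.994 and 0.693 FPKM with enzalutamide and 1.78, 1.74 and 0.677 FPKM without. Its effect of -0.70 ± 0.26 did not pass (SE, limma adjusted p = 0.090), though both 20 uM values were below the other 4. KIF27, a kinesin of motile cilia, measured 1.21, 1.72 and 1.78 FPKM with enzalutamide and 1.08, 1.43 and 2.86 FPKM without, with an effect of 0.61 ± 0.26 (SE, limma adjusted p = 0.12). KIF2A, a depolymerase related to KIF2C, and KIF9, of motile cilia, had effects of 0.45 and -0.11 and did not pass. KIF2A and KIF2C are relatives by sequence. The levels of KIF2A at 20 uM PTUPB, 12.8 FPKM with enzalutamide and 14.3 FPKM without, were nevertheless the highest of its 6 libraries. The class counts depend on where KIF2A is placed, since among the mitotic kinesins it would be a member with an effect above 0.

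Between 20 and 10 uM PTUPB the same fit called 8 mitotic kinesins lower at 20 uM and 0 higher, beside 16.9% and 16.5% of all genes. The 8 were KIF2C, KIF11, KIF14, KIF15, KIF18B, KIF20A, KIF20B and KIFC1, and the median of the class was -1.41. Among transport kinesins KIF1B, KIF3A, KIF13B and KIF16B rose and KIF3C fell between these doses. KIF21A and KIF2A rose among the ciliary and atypical ones. The 15 calls among kinesins, beside 33.4% of all genes, became 2 without the library with 10 uM PTUPB alone, 7 without the control library, 7 without the library with enzalutamide alone and 9 without the combination at 10 uM.

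No kinesin was called for 10 uM PTUPB over 0 uM by limma, as was none of the 12960 genes (0%), with 480 genes at an unadjusted p below 0.05. Among kinesins that unadjusted level was reached by 3, all mitotic, namely KIF2C at -0.86, KIF14 at -0.85 and KIF20A at -1.10. All 12 mitotic effects were below 0, with a median of -0.65, against -0.03 over all genes. The 13 transport kinesins had a median of -0.01.

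Enzalutamide, as an average over the PTUPB doses, also gave 0 kinesins and 0 of 12960 genes (0%) by limma, with 626 genes at an unadjusted p below 0.05. KIF2C was the kinesin at that unadjusted level, at -0.58. The 12 mitotic kinesins were again all below 0, with a median of -0.39 against 0.01 over all genes. On the TPM scale the median of all genes shifts by -0.24 for enzalutamide and by -0.12 for 10 uM PTUPB, and 9 genes, none of them a kinesin, were called for enzalutamide. Fitting the recovered fragments with limma-voom called 1 gene for enzalutamide and 0 for 10 uM PTUPB, and no kinesin for either.

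Compared library by library, the combination at 10 uM PTUPB stood apart from both single agents. Differences were counted at 1 or more on the log2(FPKM + 1) scale and have no replicate check. Against control, 11 of the 12 mitotic kinesins were lower by that margin with 10 uM PTUPB and enzalutamide (2.58% of all genes), 0 with enzalutamide alone (1.37%) and 0 with 10 uM PTUPB alone (0.772%). The medians were -1.31, -0.35 and -0.36. Set against enzalutamide alone, the combination had 5 mitotic kinesins lower (1.57% of all genes; 8 on the TPM scale and 10 with a pseudocount of 0.1), and set against 10 uM PTUPB alone it had 7 (2.01%). It was below control and below both single agents for 12 of the 12 mitotic kinesins, 2 of the 13 transport kinesins and 32.5% of all genes. These contrasts share libraries, and the control library was the highest of the 6 for 12 of the 12 mitotic kinesins, beside 15.6% of all genes.

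At 20 uM PTUPB, mitotic kinesins lower by the margin numbered 11 with enzalutamide (15.8% of all genes) and 12 without it (12.7%), each against 0 uM, with medians of -1.86 and -2.48. The transport kinesins higher by the margin were KIF5C with enzalutamide (13.5% of all genes) and KIF13B without it (9.47%), while KIF3C was lower by it with enzalutamide, at -1.26. With both agents at 20 uM PTUPB, 0 of the 12 were lower by the margin than with PTUPB alone (2.9% of all genes), 3 were lower by less than it, and the median difference was 0.19. KIF22 measured 9.01 FPKM with both agents and 4.32 FPKM with 20 uM PTUPB alone, and KIF4A 1.54 and 0.691 FPKM, while KIF2C went the other way with 1.02 and 1.76 FPKM.

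The change over dose can be set side by side for the 2 series. For the mitotic kinesins the series start at unlike levels. At 0 uM enzalutamide alone lay below control for 12 of the 12, at a median of -0.35. At 20 uM the median difference between the 2 libraries was 0.19. The log2 difference between 10 and 0 uM was more negative with enzalutamide than without it for 12 of the 12 mitotic kinesins, with a median gap of -0.68 and a range from -1.34 to -0.36, and for 6757 of the 12960 genes. At 20 uM the difference from 0 uM was less negative with enzalutamide for 11 of the 12, with a median gap of 0.56, and for 6805 of the 12960 genes, with a median of 0.04. The exception was KIF2C. The interaction of enzalutamide with linear PTUPB dose, the form of this difference that the 6 libraries allow to be tested, called 0 kinesins and 0 of 12960 genes (0%) by limma, with 1219 genes and 1 kinesin, KIF5A, at an unadjusted p below 0.05. For the interaction 301 genes were called on the TPM scale, 9 after rescaling by total fragments and 23 by limma-voom, with no kinesin among them. The opposite gaps at 10 and 20 uM were not tested, since a term for each dose leaves no residual degree of freedom.

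**Figure D3:**
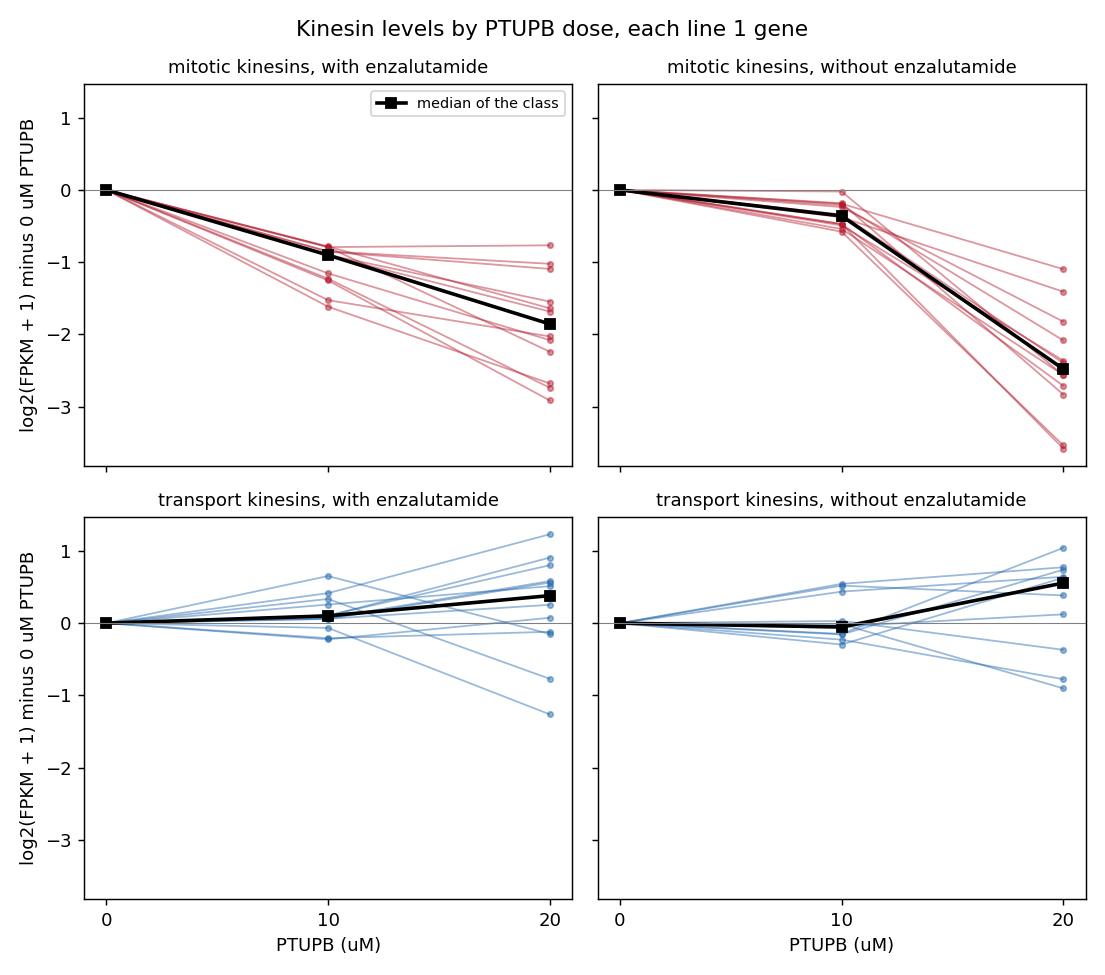
Change in log2(FPKM + 1) from 0 uM PTUPB (vertical axis) by PTUPB dose in uM (horizontal axis), 1 line for each kinesin tested and squares for the class median, with enzalutamide on the left and without it on the right. The mitotic medians are -0.90 and -1.86 at 10 and 20 uM with enzalutamide and -0.36 and -2.48 without it, while the transport medians stay between -0.05 and 0.56.

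The mRNAs of proteins that work with mitotic kinesins were tested gene by gene in the same fit. Of 33 tested partners of the spindle, kinetochore and cytokinesis machinery, 28 fell with 20 uM PTUPB and 0 rose, with a median of -2.34, beside 18.2% of all genes falling and 15.9% rising. The lowest were DLGAP5, a spindle assembly factor, at -3.75 ± 0.49 (SE, limma adjusted p = 0.0060), and ANLN, the scaffold protein anillin of the contractile ring, at -3.43 ± 0.48 (SE, limma adjusted p = 0.0070). ANLN measured 21.3, 7.18 and 1.55 FPKM at 0, 10 and 20 uM PTUPB with enzalutamide and 21.2, 22.1 and 0.662 FPKM without. CENPE, the kinetochore kinesin that the symbol rule does not include, measured 2.65, 0.914 and 0.652 FPKM with enzalutamide and 4.04, 2.54 and 0.462 FPKM without. Its fall of -1.46 ± 0.31 (SE, limma adjusted p = 0.020) lies within the range of the mitotic KIF genes. MKI67, the proliferation marker Ki-67, fell by 2.57 (limma adjusted p = 0.0063), with 8.27, 3.30 and 0.813 FPKM with enzalutamide and 12.3, 11.3 and 0.932 FPKM without. PRC1, the midzone bundler that binds KIF4A, was listed too low to be tested, at 0.023 to 0.285 FPKM. Whether its exons overlap those of other genes was not examined. The CHR letters stood in the promoter windows of 22 of 28 partners (78.6%).

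Regulators of mitotic transcription split. Of 19 tested, 8 fell and 3 rose, with a median of -0.64, and the rises are near the 15.9% of all genes that rose (18.2% fell). MYBL2, the activator B-Myb that joins MuvB at CHR promoters, measured 41.5, 13.0 and 3.81 FPKM at 0, 10 and 20 uM PTUPB with enzalutamide and 46.8, 41.9 and 1.54 FPKM without, a fall of -3.69 ± 0.56 (SE, limma adjusted p = 0.0083). FOXM1, which activates the same genes in late G2, measured 11.4, 4.80 and 3.78 FPKM with enzalutamide and 13.8, 10.5 and 2.08 FPKM without, a fall of -1.82 ± 0.37 (SE, limma adjusted p = 0.018). E2F1, an activator of S phase genes, fell by 2.05 (limma adjusted p = 0.0095). CDKN1A, the p21 inhibitor of cyclin-dependent kinases whose activity favours the repressive DREAM complex, measured 48.4, 50.4 and 469 FPKM with enzalutamide and 32.8, 25.2 and 427 FPKM without. It rose by 3.46 ± 0.26 (SE, limma adjusted p = 0.0025), with both 20 uM libraries far above the others. LIN52, a MuvB subunit, rose by 1.08 (limma adjusted p = 0.016).

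On the transport side, 4 of 19 tested light chains and adaptors rose and 0 fell, with a median of 0.24. This share of rises is near that of all genes, of which 15.9% rose and 18.2% fell. The largest were BORCS5, which couples lysosomes to kinesins, at 1.23 ± 0.21 (SE, limma adjusted p = 0.012), and KLC2, a light chain of conventional kinesin, at 1.07 ± 0.17 (SE, limma adjusted p = 0.010). KLC2 measured 6.30, 6.24 and 14.0 FPKM at 0, 10 and 20 uM PTUPB with enzalutamide and 6.45, 5.01 and 14.9 FPKM without. Of 27 genes of cytoplasmic dynein and dynactin, the machinery of opposite direction, 7 rose and 1 fell, with a median of 0.30, beside 15.9% of all genes rising and 18.2% falling. NDEL1, a dynein regulator, rose by 1.25 (limma adjusted p = 0.0099) and DCTN2, a dynactin subunit, by 1.11 (limma adjusted p = 0.011). The gene that fell was SPDL1, which recruits dynein to kinetochores in mitosis, at -1.33 ± 0.20 (SE, limma adjusted p = 0.0085). Of 13 tubulins tested, 1 rose and 5 fell, with a median of -0.45, beside the same shares of all genes. TUBE1, epsilon-tubulin of centrioles, rose by 0.99 (limma adjusted p = 0.012), while the beta-tubulins TUBB4A and TUBB4B fell by 1.34 and 1.18 (limma adjusted p = 0.013 and 0.0092). Tubulin genes are close paralogs and may share reads, which makes their values uncertain.

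**Figure D4:**
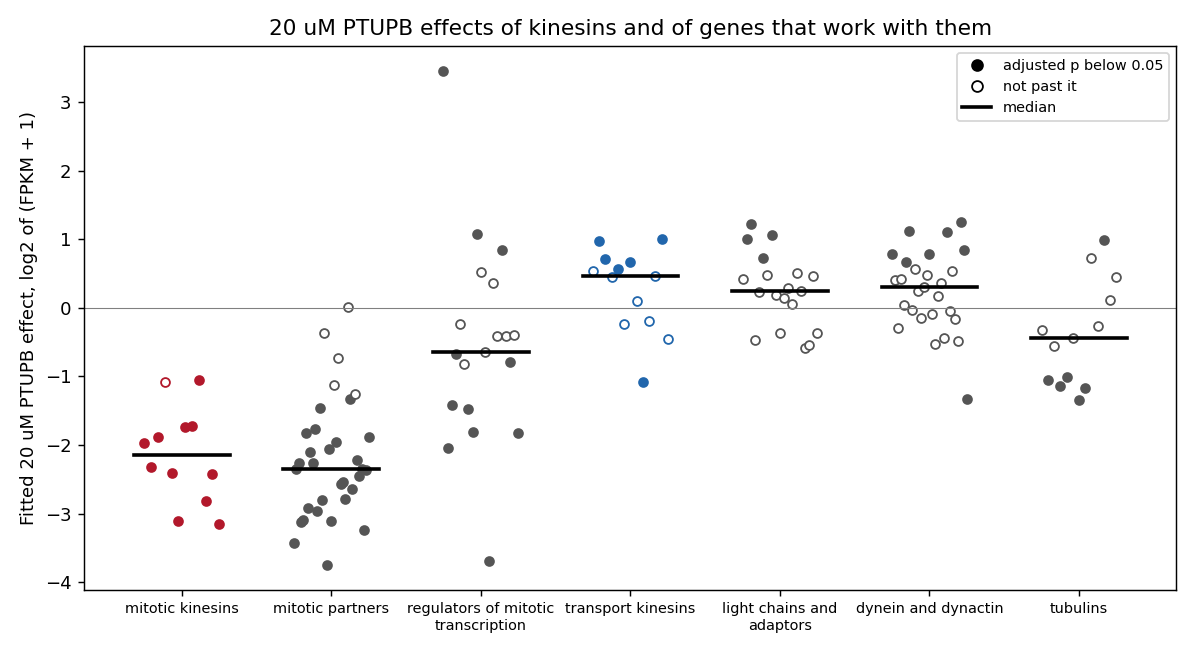
Fitted effect of 20 uM PTUPB on log2(FPKM + 1) (vertical axis) for mitotic kinesins, transport kinesins and the 5 lists of genes that work with them (horizontal axis), 1 point for each gene, filled where the limma adjusted p is below 0.05, with a line at the median. Medians are -2.15 for mitotic kinesins, -2.34 for their partners and -0.64 for regulators, and 0.47, 0.24 and 0.30 for transport kinesins, light chains with adaptors, and dynein with dynactin.

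The remaining 11 kinesins did not reach a mean of 1 FPKM and were not tested. The mitotic KIF2B, a depolymerase with a restricted expression pattern, and KIF19, a depolymerase of motile cilia, had 0 fragments in every library. KIF4B, an intronless copy of KIF4A, had at most 5 fragments, and reads shared with KIF4A cannot be told apart in these values. Among transport kinesins KIF17 and KIFC3 stayed at means of 0.0953 and 0.137 FPKM. KIF6, KIF7, KIF21B, KIF25, KIF26A and KIF26B made up the rest, with means of at most 0.132 FPKM. KIF7, a regulator of Hedgehog signalling in cilia, KIF21B, KIF25 and KIF26B were listed at 0 in both libraries with 20 uM PTUPB, which had the lowest depths. In the other 4 libraries these genes had 0.00246 to 0.344 FPKM, from 1 to 125 fragments. The share of all genes with this order was not counted. The members nearest the level of 1 FPKM were KIF18A at 1.05 and KIF9 and KIF12 at 1.11 FPKM inside it, and KIFC3 at 0.137 and KIF21B at 0.132 FPKM outside it, so no kinesin lay just below.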

How the data were processed

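The authors deposited FPKM for 6 libraries of paired-end mRNA sequencing. Per the submitters' processing notes, HISAT and Cufflinks were used. Versions, genome build and strand setting are not given in the sources used here. All 58735 gene identifiers matched GENCODE 29, from which classes of gene and exon lengths were taken. FPKM times exon length fell on whole fragments within 0.05, which gave the depth of each library.

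The scale was log2 of FPKM with 1 added. Tests ran on 12960 genes with a mean FPKM of 1 or more, with limma 3.58.1 (intensity trend, R 4.3.3), two-sided, adjusted by Benjamini-Hochberg at 0.05. The model held PTUPB as 3 levels plus enzalutamide (2 residual degrees of freedom), and the interaction fit added enzalutamide by linear dose (1 residual degree of freedom). Pairs of libraries were compared at log2 1 without a test. The fits were tested on simulated data. Alternatives were TPM, scaling by total fragments, a pseudocount of 0.1, no filter, a filter at 0.3, limma-voom and leaving out each library.

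The members and gene lists were chosen with earlier results of these data known. Values in every library are given for the 8 mitotic kinesins, the 3 transport and the 2 ciliary or atypical kinesins per direction with the largest 20 uM effect, and for the 3 of highest mean. From each partner list the 2 largest called effects per direction are named, with FOXM1, MYBL2, CDKN1A, CENPE and MKI67. PRC1 and the other kinesins named with values were chosen after values were seen. Python 3.11.15 with numpy 2.4.6, pandas 2.3.3, scipy 1.17.1 and matplotlib 3.10.9 did the other steps.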

Additional observations from a re-analysis of the deposited data

How the results depend on the processing

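Each result was recomputed under 12 alternatives. For 20 uM PTUPB over 0 uM, the 19 called kinesins kept their direction under all of them, and KIF2C was called in 13 of 13 settings, KIFC1 in 12, KIF18B and KIF20A in 11, but KIF1B and KIF16B in 3 and KIF3A in 4. KIF5A, never called, ranged from -0.72 to 0.34. Without a filter on low levels, limma called 2 kinesins for 20 uM PTUPB, 2 of them mitotic and falling and 0 transport and rising, and 1, 1 and 0 for 20 over 10 uM; that fit tested 31321 genes and called 1201. The rising transport kinesins for 20 uM numbered 2 on TPM, 2 by total fragments and 2 with a filter at 0.3 FPKM, and for 20 over 10 uM 2 by total fragments. The mitotic median was -2.83 on TPM, -3.21 with a pseudocount of 0.1 and -3.48 with limma-voom. Mitotic kinesins lower by log2 1 in the 10 uM combination against enzalutamide alone numbered 8 on TPM and 10 with a pseudocount of 0.1, and with enzalutamide alone against control 1 on TPM. With 1 library left out, calls ranged from 1 to 19 for 20 uM (mitotic falling 1 to 12, transport rising 0 to 3) and from 2 to 15 for 20 over 10 uM (mitotic falling 2 to 10, transport rising 0 to 2), and the mitotic median from -2.63 to -1.60. Apart from the number of genes or libraries in a fit, the causes were not tested. The fits without 1 library have 1 residual degree of freedom, and the interaction could not be fitted in them. No paired analysis was possible because each condition is 1 library and the labels carry no replicate numbers.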
